A study of Homo sapiens with 6 samples.

Results

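TXNIP and the genes of its arrestin-domain relatives ARRDC1, ARRDC2, ARRDC3 and ARRDC4 were examined in HCT116 cells after knockdown of CDK4 and CDK6. The genes were taken by family name. On the array each gene is read by 1 or more probe sets, which are groups of short probes against 1 transcript. Every probe set whose annotated symbol field names 1 of the 5 genes was used, which gave 8 probe sets of 54675, and the 5 genes were among 19775 genes measured. Where a gene had several, its representative was selected on mean level across all 6 arrays (the brightest), a measured value that takes no account of the difference between the groups. The genes themselves were proposed with earlier results of these arrays known, so the p-values below describe them and do not single them out.

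HCT116 is an established human colorectal carcinoma line. The control siRNA group (3 arrays) received 30 nM of a non-targeting siRNA pool and 30 nM of a second negative control siRNA. The CDK4/6 siRNA group (3 arrays) received a CDK4 siRNA pool and 1 CDK6 siRNA, each at 30 nM. All cells were transfected with the same lipid reagent in DMEM/F12 with 12.5 mM glucose and 10% serum, the medium was replaced at 24 h, and RNA was taken at 96 h. There was no untransfected group and 1 cell line, and the medium glucose at harvest is not given in the sources used here. The labels call the arrays biological replicates without saying whether the cultures were started separately, so every p-value rests on array-to-array spread, which may be technical.

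TXNIP, the thioredoxin-interacting protein, binds and inhibits thioredoxin, the small protein that keeps other proteins reduced, and restrains glucose uptake by drawing glucose transporters off the cell surface. It belongs with the ARRDC proteins to the alpha-arrestins, adaptors that recognise membrane proteins through an arrestin fold and recruit ubiquitin ligases of the NEDD4 family through short proline-rich motifs. Transcription of TXNIP and ARRDC4 is switched on by MondoA (gene MLXIP) with its partner MLX when glucose phosphates accumulate, at a promoter sequence called the carbohydrate response element. Forkhead (FOXO) factors and the CCAAT-binding factor NF-Y are also known to act on TXNIP. MYC belongs to the same wider network of helix-loop-helix factors.

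The bases before the annotated starts of TXNIP, ARRDC4 and ARRDC3 show how far these known elements are shared. The sequences are from RefSeq on GRCh38.p14, which held all 5 genes, and run 5′ to 3′ on the gene's own strand, ending at the base before the start. They are shown for TXNIP (chr1:145996580-145996829, minus strand), for ARRDC4 (chr15:97960453-97960702, plus strand) and for both annotated starts of ARRDC3 (chr5:91383318-91383567 and chr5:91380098-91380347, minus strand). Capitals mark a carbohydrate response element, CACGTG, the forkhead motif GTAAACA and CCAAT on either strand, so that ATTGG and TGTTTAC are the reverse-strand forms.
TXNIP: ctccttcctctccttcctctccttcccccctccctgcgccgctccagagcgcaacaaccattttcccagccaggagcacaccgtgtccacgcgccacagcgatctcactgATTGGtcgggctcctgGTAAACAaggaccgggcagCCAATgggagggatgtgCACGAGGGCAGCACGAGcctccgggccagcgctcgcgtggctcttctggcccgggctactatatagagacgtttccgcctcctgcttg
ARRDC4: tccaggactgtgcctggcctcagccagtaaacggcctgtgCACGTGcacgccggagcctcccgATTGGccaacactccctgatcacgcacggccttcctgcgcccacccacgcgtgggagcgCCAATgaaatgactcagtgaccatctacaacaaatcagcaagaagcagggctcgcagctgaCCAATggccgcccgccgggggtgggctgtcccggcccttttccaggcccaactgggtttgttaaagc
ARRDC3 first start: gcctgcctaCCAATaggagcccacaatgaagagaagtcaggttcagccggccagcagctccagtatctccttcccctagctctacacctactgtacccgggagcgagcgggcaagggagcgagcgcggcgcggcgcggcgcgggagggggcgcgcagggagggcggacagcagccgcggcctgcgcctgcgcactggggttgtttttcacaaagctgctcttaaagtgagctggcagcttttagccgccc
ARRDC3 second start: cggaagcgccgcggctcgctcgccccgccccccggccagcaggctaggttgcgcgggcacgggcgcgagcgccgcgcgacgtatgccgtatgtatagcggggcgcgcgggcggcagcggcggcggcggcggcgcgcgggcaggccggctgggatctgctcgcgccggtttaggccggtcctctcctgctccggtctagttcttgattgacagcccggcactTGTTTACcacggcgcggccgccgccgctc

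The TXNIP sequence held the crowded arrangement. A carbohydrate response element lay at -88 to -72 from the start, read as 2 copies of CACGTG 5 bases apart with 2 mismatches in all. A CCAAT box lay upstream of it at -105 to -101, the forkhead motif at -124 to -118, and a second CCAAT box on the other strand at -140 to -136. Under the same rule a carbohydrate response element was found in 0.849% of 35116 promoter windows of this length in the table, GTAAACA in 2.98% and CCAAT in 32.0%. The second annotated TXNIP start had none of these 3 motifs.

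ARRDC4 had no carbohydrate response element under this rule in the window. It held 1 CACGTG at -210 to -205, a motif found in 6.34% of windows, and 3 CCAAT boxes at -187 to -183, -128 to -124 and -67 to -63. ARRDC3 had 1 CCAAT box at the first start, at -241 to -237, and 1 forkhead motif, on the reverse strand, at the second start, at -29 to -23. ARRDC1 had 1 CCAAT box, and ARRDC2 had 1 CCAAT box and a TATAAA (10.7% of windows) at its second start. CACGTG reads the same on both strands. The looser E-box CANNTG, which contains CACGTG, was in 61.8% of windows, with 3 matches at ARRDC4, 1 at the second ARRDC3 start, where it overlaps the forkhead motif, and 0 at the others. The hypoxia-type cores ACGTG (18.5% of windows) and GCGTG (32.2%) had 2 and 4 matches at ARRDC4, where both ACGTG matches lie within CACGTG, and 0 and 2 at the first TXNIP start. The second TXNIP start had 1 ACGTG, and each ARRDC2 start had 2 GCGTG. These matches describe letters and not binding, and no match says only that the letters are not in this window.

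**Figure D1:**
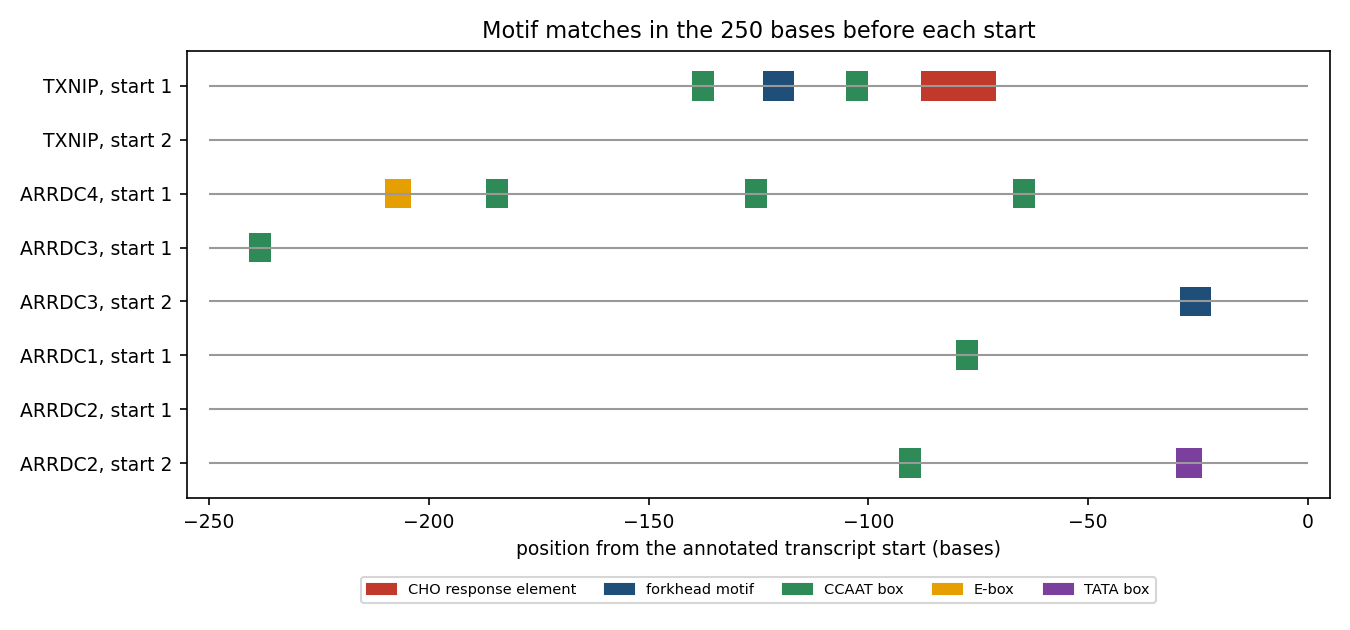
Positions of motif matches in the 250 bases before each annotated start of the 5 genes; the x axis is the distance in bases from the start and coloured boxes are matches on either strand, with CHO response element standing for carbohydrate response element and E-box for CACGTG only. The first TXNIP start is the only one of the 8 windows with a carbohydrate response element, and ARRDC4 has the most CCAAT boxes, 3.

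Expression values are RMA values on a log2 scale, on which a difference of 1 is a doubling, and array medians lay between 5.36 and 5.39. Fold changes are CDK4/6 siRNA minus control, fitted with limma over all genes with Benjamini-Hochberg adjustment, and the threshold for a call was an adjusted p of 0.05. Both siRNA targets fell, CDK4 to 62.2% and CDK6 to 34.0% of the control level (limma adjusted p = 0.000430 and 7.19e-06). Among epithelial markers EPCAM, CDH1, KRT8, KRT18 and KRT19 were bright, at control means of 10.96 to 13.16, while the intestinal markers CDX1, CDX2, VIL1 and LGALS4 were at 4.46 to 5.97. The averaged level of these 9 was 9.12 to 9.19 in control and 9.21 to 9.24 in CDK4/6 siRNA arrays, and 3 were called, KRT8 (0.59) and KRT18 (0.51) higher and CDH1 (-0.54) lower. A dimmer CDH1 probe set (control mean 5.15) gave -0.0069 and did not pass. The averaged level of 3 leukocyte markers was 4.36 to 4.45 in control and 4.29 to 4.55 in CDK4/6 siRNA arrays, that of 3 endothelial markers 5.18 to 5.37 and 5.23 to 5.34, and that of 5 fibroblast markers 5.71 to 5.84 and 5.56 to 5.74, the last led by COL1A1 at 8.09 and 7.59, the only one of these non-epithelial markers called (-0.49, limma adjusted p = 0.000311). Further COL1A1 probe sets gave -0.57, called lower, and -0.075, -0.058 and -0.037, which did not pass. The part of these marker levels in the results was not tested. RNA per cell and the make-up of the culture cannot be told apart in bulk samples.

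Of the 5 genes, ARRDC3 fell and ARRDC4 rose, while TXNIP, ARRDC1 and ARRDC2 did not pass the threshold. Over all genes 5307 of 19775 (26.8%) were called, 14% higher and 12.9% lower, so 2 called of 5 is no result about the family as a group. The median log2 fold change was -0.11 over the 5 genes and -0.0011 over all genes. The fitted values ran from -1.22 to 0.40, a span of 1.62 within the family. An exact permutation test (two-sided) gave p = 0.1 for TXNIP, ARRDC1, ARRDC3 and ARRDC4, the smallest that 3 arrays against 3 allow, and 0.4 for ARRDC2.

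**Figure D2:**
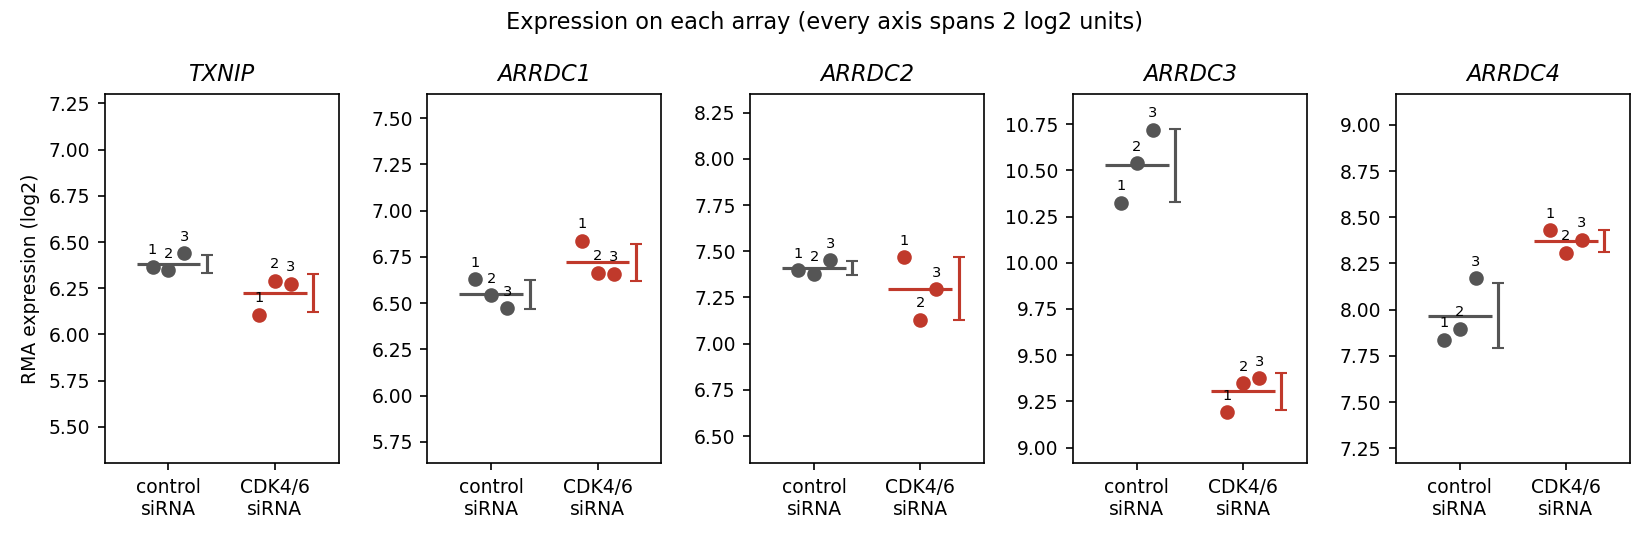
RMA expression (log2, y axis) of each gene on each array, numbered by replicate, with the group mean as a line and the standard deviation (n = 3) as a bar beside it; every panel spans the same 2 log2 units. ARRDC3 drops from a control mean of 10.53 to 9.30 and ARRDC4 moves from 7.97 to 8.37, while the groups overlap for ARRDC2.

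ARRDC3, an adaptor known for the ubiquitination of the beta-2 adrenergic receptor and of integrin beta-4 and as a growth-restraining gene in breast cancer, changed most. Its control arrays read 10.32, 10.54 and 10.72 and its CDK4/6 siRNA arrays 9.19, 9.35 and 9.37. The 2 groups were thus separated by almost a full log2 unit, and the spread among controls was wider than among knockdown arrays. ARRDC3 fell by 1.22 on the log2 scale (SE 0.0998, 95% interval -1.45 to -0.996), to 42.9% of the control level (limma adjusted p = 9.30e-05). Only 20 of 19775 genes had a lower fold change, and by size it ranked 39. With 1 array left out the value ran from -1.32 to -1.13. ARRDC3 rests on 1 probe set, so no second reading of the transcript was available here.

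ARRDC4, which like TXNIP responds to glucose through MondoA and restrains glucose uptake, moved the other way. The control arrays read 7.84, 7.90 and 8.17 and the CDK4/6 siRNA arrays 8.43, 8.31 and 8.38. The groups did not overlap, but control replicate 3 lay close to the knockdown arrays. ARRDC4 rose by 0.40 (SE 0.0884, 95% interval 0.20 to 0.60), 1.32-fold (limma adjusted p = 0.00900). The size of this change was exceeded by 10.3% of genes. The rise was 0.50 without control replicate 3, the largest value with 1 array left out, and 0.34 without control replicate 1, the smallest. The call was lost without variance moderation (adjusted p = 0.0789, in a range of 0.00127 to 0.0789 over the alternatives). This gene too rests on 1 probe set.

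Control replicate 3 had the highest control value of ARRDC3, ARRDC4, TXNIP and ARRDC2, and the lowest of ARRDC1. Leaving it out ended neither call, with ARRDC3 at -1.13 and ARRDC4 at 0.50.

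TXNIP itself did not pass the threshold on any probe set. Its brightest probe set read 6.37, 6.35 and 6.44 in control and 6.11, 6.29 and 6.27 in CDK4/6 siRNA arrays. All 3 knockdown values lay below all 3 control values, as did those of 20.3% of genes, and the groups did not overlap in 40.9% of genes in either direction. The log2 fold change was -0.16 (SE 0.0666, 95% interval -0.31 to -0.0082, limma adjusted p = 0.119), and it was -0.10 without CDK4/6 siRNA replicate 1, the lowest of the 6 arrays. The unadjusted interval of this probe set is compatible with a level between 80.6% and 99.4% of control. In the limma fit of probe sets its interval was -0.32 to 0.0015, which includes no change. Even the brightest probe set was not bright, with a mean level above that of 47.8% of genes. The other 2 lay at means of 5.44, near the array medians, and 4.97, below all of them. Their log2 fold changes were 0.12 and -0.043 (adjusted p = 0.521 and 0.747 in the limma fit of probe sets). The 3 TXNIP probe sets therefore differ in sign, and their mean gave -0.027. All 3 carry the name suffix of probe sets that can match several transcripts, and no detection calls were used. RMA compresses changes of dim probe sets, and how far it did so for TXNIP was not tested.

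ARRDC1, which recruits the budding protein TSG101 and drives release of small vesicles from the plasma membrane, read 6.63, 6.54 and 6.47 in control and 6.84, 6.66 and 6.66 in CDK4/6 siRNA arrays. Here the knockdown arrays were the higher ones in every pairing, as they were in 20.6% of all genes, and the gap between the groups was far smaller than the spread within them. The log2 fold change was 0.17 (SE 0.0706, 95% interval 0.011 to 0.33, limma adjusted p = 0.113), and it was 0.11 without CDK4/6 siRNA replicate 1. With the arrays scaled to hybridisation spike-ins, control RNAs added to every array, it was 0.28 and passed (adjusted p = 0.0137, in a range of 0.0137 to 0.434 over the alternatives). The spike-ins were read from the RMA values, after the arrays had been equalised, so this scaling is no measure of total RNA. The dimmer ARRDC1 probe set averaged 4.95 and its log2 fold change was 0.10 (adjusted p = 0.482 in the limma fit of probe sets).

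ARRDC2, a less studied adaptor of the same family, read 7.40, 7.38 and 7.45 in control and 7.47, 7.13 and 7.29 in CDK4/6 siRNA arrays. CDK4/6 siRNA replicate 1 was above every control, so the groups overlapped. The log2 fold change was -0.11 (SE 0.0840, 95% interval -0.30 to 0.078, limma adjusted p = 0.397), and it was -0.20 without that replicate and -0.029 without CDK4/6 siRNA replicate 2. When each probe set was tested separately, 17% of all probe sets were called, and of the 8 probe sets here 2 were.

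**Figure D3:**
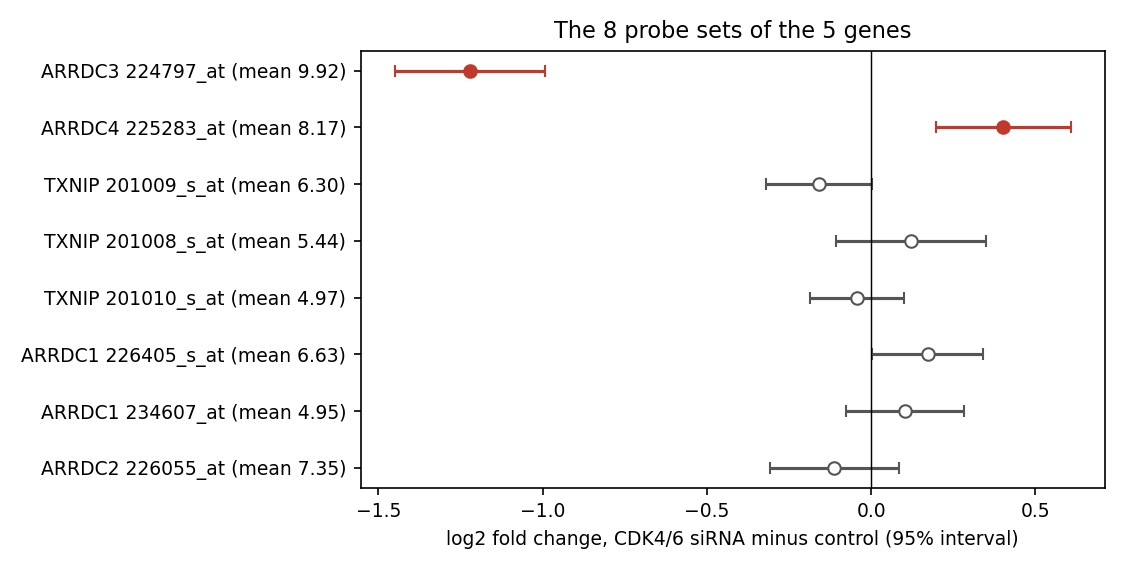
Log2 fold change (x axis, CDK4/6 siRNA minus control) of the 8 probe sets with 95% intervals from the limma fit over all probe sets, with the mean level in brackets; filled points passed an adjusted p of 0.05. The ARRDC3 and ARRDC4 probe sets pass, and the 3 TXNIP probe sets lie on both sides of 0.

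**Figure D4:**
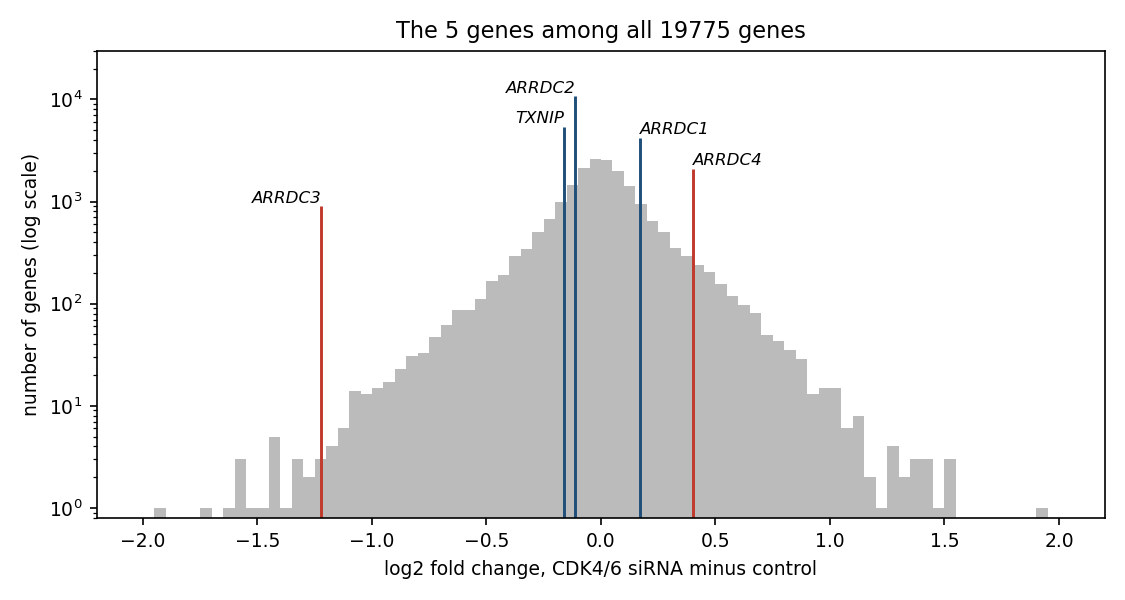
Histogram of log2 fold changes of all 19775 genes (bars, number of genes on a log axis), with a line at the value of each of the 5 genes, red where it passed and blue where not. ARRDC3 at -1.22 lies in the far left tail, ARRDC4 at 0.40 on the right flank, and TXNIP, ARRDC1 and ARRDC2 within the central mass.

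Partners, regulators and cargoes of the family were counted from 10 lists of 108 genes, of which 100 were measured. Of these 19 rose and 20 fell, or 39% against 26.8% of all genes, with a median of 0.0094. The lists were fixed with earlier results of these arrays known, so the higher share is no result about them. With the spike-in scaling, under which the median of all genes moved to 0.11, the counts were 32 higher and 10 lower, so the split between directions depends on the scaling.

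MondoA and the MYC network factors around it went both ways. Of 9 measured genes 3 rose and 4 fell, with a median of -0.023, and the counts with the spike-in scaling were 3 and 4 too. MLXIP, which encodes MondoA, read 8.35, 8.47 and 8.32 in control and 8.83, 8.77 and 8.80 in CDK4/6 siRNA arrays, a rise of 0.42 with no overlap. Its next brightest probe set rose by 0.40, and 2 probe sets at levels under 4 gave -0.090 and 0.22 and did not pass. The partner MLX gave 0.017 and the related ChREBP gene MLXIPL -0.023, and neither passed, although the dimmest of 6 MLX probe sets was called higher (0.37). MYC rose by 0.42 and MAX, the partner of MYC, by 0.62, while MXI1 (-0.83), MXD1 (-0.82) and MXD3 (-0.47), which compete with MYC for MAX, fell. MAX lost its call on probe sets with a plain name (0.21).

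Among other factors known to act on TXNIP transcription, 2 of 12 rose and 4 fell, with a median of -0.049 (4 and 3 with the spike-in scaling). FOXO3, a forkhead factor that activates growth-restraining genes, read 11.09, 11.19 and 11.28 in control and 10.79, 10.82 and 10.75 in CDK4/6 siRNA arrays, and fell by 0.40. Of its 4 probe sets 3 fell and the dimmest gave -0.31 without passing. FOXO1 gave -0.16 and did not pass. NFYA, a subunit of the CCAAT-binding factor, fell by 0.45, while the other subunits NFYB (0.20) and NFYC (-0.0051) did not pass. Of 4 NFYB probe sets, all with positive values, the second brightest was called higher (0.30). KLF6 fell by 0.34, a call lost with the spike-in scaling (-0.23), and HIF1A rose by 0.26.

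Known glucose-responsive targets of MondoA or ChREBP did not follow 1 direction, with 5 of 20 higher and 2 lower and a median of 0.11 (9 and 1 with the spike-in scaling). HK2, a hexokinase, gave -0.67 on the brightest of its 3 probe sets and passed, but 0.72 and 0.62 on the dim ones, which also passed, and 0.22 when all 3 were averaged. The lipid synthesis enzymes of this list differed among themselves. ELOVL6 (0.32), ACLY (0.31) and ACACA (0.34) rose, while FASN (0.20), SCD (-0.15) and ACACB (0.023) did not pass. On further probe sets SCD was called lower on all 3 others (-0.33, -0.28 and -0.34), FASN on its second (-0.37) and ACACB on 1 of 7 (-0.25).

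In the thioredoxin system 5 of 17 genes rose and 1 fell, with a median of 0.083 (9 and 0 with the spike-in scaling). Thioredoxin itself (TXN), which TXNIP binds, read 12.62, 12.60 and 12.53 in control and 12.79, 12.80 and 12.82 in CDK4/6 siRNA arrays, a rise of 0.22. This call was lost with the mean of its 2 probe sets (0.064) and on its dim plain-name probe set (-0.093). Thioredoxin reductase TXNRD1 gave -0.16 and did not pass, but it was called lower under 5 of the 19 alternatives. Its limma adjusted p ran from 0.00419 to 0.994 over them. The methionine sulfoxide reductase MSRB1 (0.48) and the peroxiredoxin PRDX6 (0.23) rose, and the stress kinase MAP3K5, which thioredoxin holds inactive, fell by 0.31. Under spike-in scaling MAP3K5 no longer passed (-0.20). TXN also did not pass without CDK4/6 siRNA replicate 3 (0.21).

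Of 5 genes for other proteins that TXNIP binds, 1 rose and 1 fell, with a median of -0.068. DDIT4, an inhibitor of mTOR complex 1, read 12.70, 12.89 and 12.85 in control and 11.85, 11.90 and 11.89 in CDK4/6 siRNA arrays, a fall of 0.93 with wide separation. COPS5, a subunit of the COP9 signalosome, rose by 0.21, a call lost without control replicate 2 (0.20) or CDK4/6 siRNA replicate 3 (0.20). The inflammasome gene NLRP3 was dim and gave -0.032.

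The ubiquitin ligases that alpha-arrestins recruit were measured by 11 genes, with their adaptors. Of these 4 fell and 1 rose, with a median of -0.013, and with the spike-in scaling 0 fell and 1 rose. SMURF1 (-0.22), WWP1 (-0.27), ITCH (-0.30) and NEDD4L (-0.31) were the 4 that fell. NEDD4L gave the opposite on its next probe sets, which rose by 0.43 and 0.36, and its fall was no longer called under spike-in scaling (-0.20). WWP1 lost its call without control replicate 2 (-0.25) or 3 (-0.23) or CDK4/6 siRNA replicate 1 (-0.22) or 2 (-0.28). ITCH lost its call without control replicate 1 (-0.32) or 3 (-0.21) or CDK4/6 siRNA replicate 1 (-0.25) or 3 (-0.31), and SMURF1 without control replicate 2 (-0.21).

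Of 6 cargoes 2 rose and 1 fell, with a median of -0.0090. The insulin receptor gene INSR read 8.65, 8.86 and 8.87 in control and 8.34, 8.27 and 8.43 in CDK4/6 siRNA arrays. INSR fell by 0.44, and all 5 of its probe sets fell. Integrin beta-4 (ITGB4), a cargo of ARRDC3, rose by 0.29, with 2 of 5 probe sets passing and the only plain-name one at 0.084. The glucose transporter SLC2A1, a cargo of TXNIP, rose by 0.22 on 1 probe set and 0.27 on the other. SLC2A1 lost its call without control replicate 1 (0.18) or CDK4/6 siRNA replicate 1 (0.21) or 2 (0.22).

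In the remaining lists 3 genes passed. Of 6 genes for proteins of the same fold 0 rose and 1 fell, with a median of 0.076 (2 and 0 with the spike-in scaling). VPS26C, a subunit of the retriever sorting complex, fell by 0.26, a call lost with the spike-in scaling (-0.15), with the mean of its probe sets (-0.16) and without CDK4/6 siRNA replicate 3 (-0.23). The beta-arrestin gene ARRB1 gave -0.0022 on its brightest probe set, while 1 of 7 probe sets rose by 0.40. Of 6 ESCRT genes with which ARRDC1 buds vesicles 0 passed, with a median of 0.015, and TSG101 gave -0.0047. Of 8 genes for AMP-activated kinase, which phosphorylates TXNIP for degradation, and its activator STK11, 0 rose and 2 fell, with a median of -0.037. These were PRKAG2 (-0.17) and PRKAB2 (-0.22), and both calls were lost with the spike-in scaling, with the replicate number as a block and, for PRKAG2, without any 1 of the 6 arrays (-0.18 to -0.15). PRKAB2 did not pass without control replicate 2 (-0.20) or 3 (-0.20) or CDK4/6 siRNA replicate 2 (-0.23) or 3 (-0.17).

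**Figure D5:**
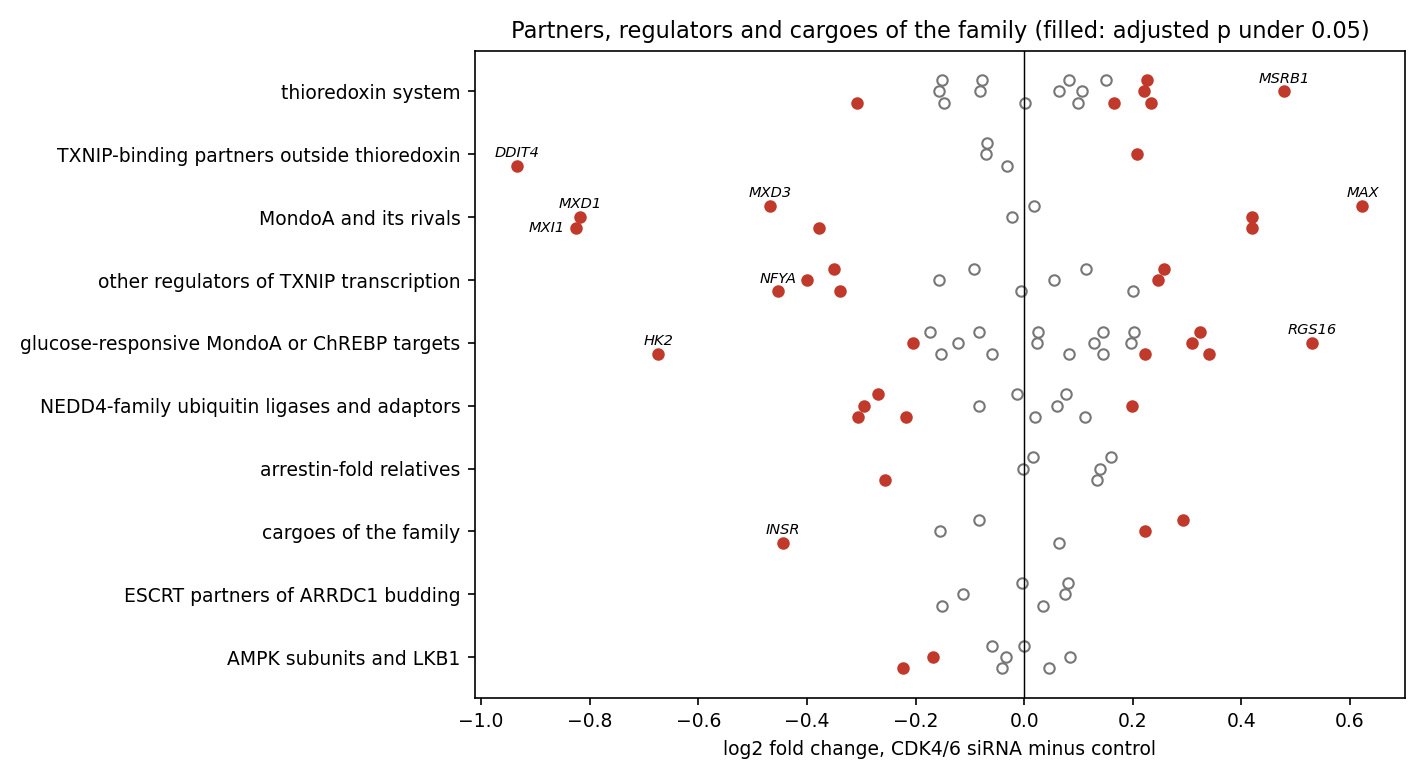
Log2 fold change (x axis, CDK4/6 siRNA minus control) of each measured gene in the 10 lists, 1 point a gene, filled where limma's adjusted p was under 0.05 and named where the size was above 0.42. DDIT4 (-0.93), MXI1 (-0.83) and MXD1 (-0.82) lie farthest left and MAX (0.62) farthest right.

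Of the 10 nearest measured neighbours in the RefSeq gene order 1 rose and 1 fell, against 26.8% of all genes called, so the count is no result about the neighbours. ZMYND19, beside ARRDC1, rose by 0.60, from 8.71 ± 0.11 to 9.30 ± 0.05 (SD, n = 3). POLR3GL, beside TXNIP, fell by 0.22. The POLR3GL call did not survive spike-in scaling (-0.11), the replicate block or leaving out control replicate 1 (-0.21) or 3 (-0.19) or CDK4/6 siRNA replicate 1 (-0.19) or 3 (-0.21). HJV on the other side of TXNIP gave -0.070. Beside ARRDC3, ADGRV1 gave -0.15, though a dim probe set of this gene (control mean 3.68) was called higher (0.23). The antisense transcript ARRDC3-AS1 gave -0.079, and on the brightest probe sets neither gene passed. ARRDC1-AS1 (0.044), KCNN1 (0.059) and IL12RB1 (-0.068) beside ARRDC1 and ARRDC2, and LINC00923 (-0.068) and FAM169BP (-0.13) beside ARRDC4, did not pass either.

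Likeness of profile was measured as the mean absolute difference over the 6 arrays in log2 value, each gene taken relative to its own control mean. The 3 genes most like ARRDC3 were CD55, a complement regulator on the cell surface (mean difference 0.0636, log2 fold change -1.32), SOCS3, a feedback inhibitor of cytokine signalling (0.0669, -1.13), and ANGPTL4, an inhibitor of lipoprotein lipase (0.0682, -1.13). The 3 most like ARRDC4 were the Mediator subunit MED29 (0.0392, 0.38), the histone gene H2BC6 (0.0436, 0.44) and PLEKHA7, an adherens junction protein (0.0488, 0.40). All 6 passed the threshold in the direction of the gene they resemble, which the measure of likeness fixes. Over the alternatives SOCS3 ran from -1.20 to -0.48, against -1.20 to -1.05 with 1 array left out.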

How the data were processed

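The authors deposited 1 table of log2 expression values for 54675 probe sets on 6 arrays, made with RMA per the submitters' processing notes. RMA corrects background, equalises distributions between arrays and summarises probes. Its version is not given in the sources used here. It hides changes in total RNA. The number of arrays limits the precision.

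Probe sets with 1 annotated symbol (41091) were used for genes, and symbols were looked up in RefSeq by gene identifier (41037 found). The brightest probe set stood for each of 19775 genes. Group was the only term in lmFit and eBayes (limma 3.58.1, R 4.3.3), with Benjamini-Hochberg adjustment over all genes. The fit was tested on simulated data. Alternatives covered scaling, probe set choice, a filter on dim genes, the replicate block, variance settings, a threshold of 0.01 and leaving out each array.

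Members and lists were chosen with earlier results of these data known. Named were all members, TXN, TXNRD1, MLXIP, MLX, MLXIPL, MYC and ARRB1 whatever their value, up to 4 called genes per list with the smallest adjusted p, the nearest neighbours and the 3 nearest profiles of each called member. FASN, SCD, ACACB, FOXO1, NFYB, NFYC, NLRP3 and TSG101 were named after their values were seen. ARRDC5 and ARRB2 were not analysed here. Figures were drawn with matplotlib 3.10.9.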

Additional observations from a re-analysis of the deposited data

How the results depend on the processing

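ARRDC3 kept its direction and call under all 19 alternatives (-1.32 to -1.11, the range with 1 array left out being -1.32 to -1.13). ARRDC4 kept its direction under all 19 (0.34 to 0.51) and its call under 18, ending at an adjusted p of 0.0789 without variance moderation (0.40). ARRDC1 passed only with the spike-in scaling (0.28), and TXNIP and ARRDC2 under none of the alternatives run, TXNIP lying between -0.19 and -0.027 and ARRDC2 between -0.20 and -0.0041. The replicate number as a block gave 4738 called genes. The same-numbered arrays had deviations correlated at -0.12 to -0.0066, and 0 of 3 control arrays correlated best with their own number. These few values show no likeness by number. The labels do not say whether same-numbered arrays shared a day or batch, and this was not tested. The block changed no call among the 5 genes. With 1 array left out 4225 to 4726 genes were called. At a threshold of 0.01 the genes called changed were 3326, the genes called higher 1803 and the genes called lower 1523, and 9 higher and 11 lower list genes, as a stricter limit must. The spike-in scaling gave 4731 higher and 1320 lower genes (78.2% higher, against 52.0%) and 32 and 10 list genes, since the spike-ins were lower by 0.11 in the CDK4/6 siRNA arrays. Plain-name probe sets gave 11 higher and 12 lower list genes, with fewer genes tested. Plain-name probe sets gave TXNIP no value.

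Some named genes changed sign, and where no value shows the cause it was not tested. With the spike-in scaling these were ARRB1 (0.11), MLXIPL (0.086), HJV (0.039), IL12RB1 (0.040), ARRDC3-AS1 (0.029) and LINC00923 (0.040), with median centring ARRB1 (0.014), with quantile normalisation MLX (-0.0016) and with cyclic loess MLX (-0.0082). With the mean of all probe sets they were ARRB1 (0.12), HK2 (0.22), NEDD4L (0.063) and ADGRV1 (0.050), and on plain-name probe sets TXN (-0.093) and NEDD4L (0.43). With 1 array left out ARRB1 ran from -0.030 to 0.022, MLXIPL from -0.11 to 0.047, HJV from -0.17 to 0.039 and LINC00923 from -0.14 to 0.024.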
